A study of Mus musculus with 10 samples.

Results

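RNA half-lives were estimated for 9079 of the 17053 genes in the deposited table, from 4 RNA-seq libraries in which newly made RNA had been chemically marked. The genes were chosen by depth, as those with 200 reads or more in each of the 4 libraries, and they held 99.0 to 99.2% of the reads of the 4 libraries. The cells were NIH-3T3, an established mouse embryonic fibroblast line, labelled as wild type. All 4 libraries came from cells given 800 µM 4-thiouridine (4sU) for 2 h. In 2 libraries the 4sU in the RNA was alkylated with iodoacetamide (SLAM A and SLAM B), and in the other two it was converted with osmium tetroxide and an ammonium salt (TUC A and TUC B). The background came from 2 libraries of cells treated with uridine at the same dose and time. It also came from 2 of 4sU-treated cells whose RNA was not converted. As the level before labelling, which was not measured in the labelled cells, 2 libraries of untreated cells were used. Nothing in the labels says whether the letters A and B mark separate cultures, so the spread between libraries may be technical. Reads summed over genes ran from 27166279 in TUC A to 33751151 in SLAM B.

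The level of an mRNA is set by how fast it is made and how fast it is destroyed. In growing cells most mRNAs are removed by shortening of the poly(A) tail, followed by decapping and digestion, and AU-rich and other elements in the transcript speed this up for many regulatory genes. 4sU stands in for uridine and enters RNA transcribed during the labelling. After conversion, each labelled position is read as C instead of T, and the share of a gene's RNA that is new can be estimated. That share, the new-to-total ratio (NTR), approaches 1 where the half-life is far below the labelling time. It falls towards its background where the half-life is many times the labelling time. If a gene's level is steady, NTR after 2 h gives its decay rate and so its half-life, which here includes loss by dilution as cells grow. Values below are given in the order SLAM A, SLAM B, TUC A and TUC B, and a gene's half-life over the 4 libraries comes from the mean of their decay rates.

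The median half-life of the measured genes was under 2 h in each library, although it was 2.12 h over genes with 1000 reads or more. The median half-life over the 9079 genes was 1.96, 1.52, 1.84 and 1.46 h in the 4 libraries, and 1.66 h by the mean rate (SD of the 4 library medians 0.242 h). One gene in 10 lay at or below 0.437 h and one in 10 at or above 6.49 h. The median NTR was 0.508, 0.598, 0.530 and 0.614, against 0.0142 and 0.0101 in the uridine libraries and 0.0193 and 0.0177 in the unconverted 4sU libraries. The libraries lettered B gave the shorter half-lives, with SLAM A above SLAM B in 86.8% of genes (median ratio 1.22) and TUC A above TUC B in 87.2% (median ratio 1.21). Between the chemistries of one letter the median ratio was closer to 1, at 1.05 for A and 1.04 for B. The order of genes was nearly the same in each pair of libraries, with a Spearman correlation across genes of 0.990 to 0.995, where genes are not independent replicates. A gene's highest library exceeded its lowest by a median of 1.34-fold, and by 1.19-fold after the library medians were set equal.

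**Figure D1:**
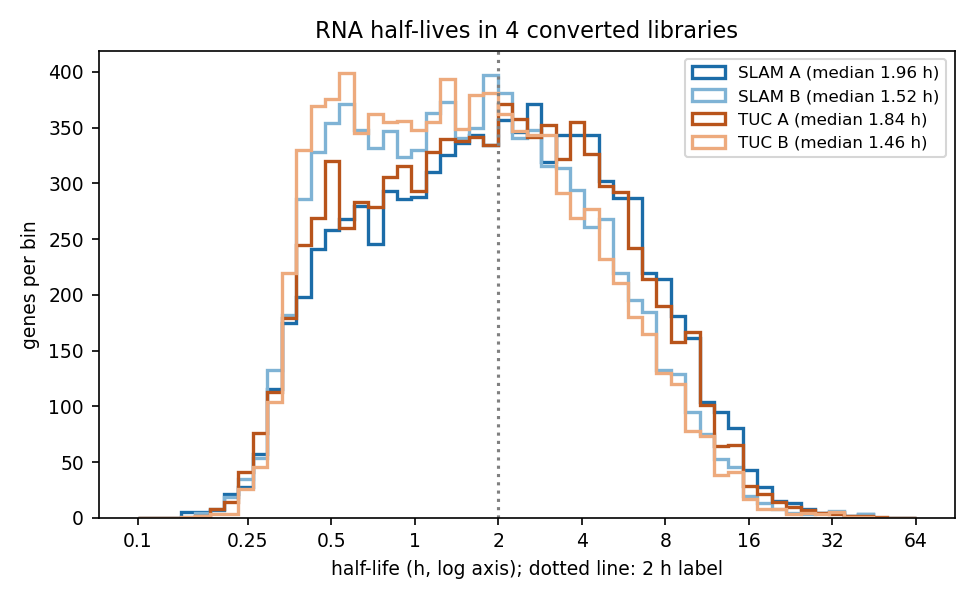
Histogram of RNA half-lives (h, log axis) against the number of genes per bin, with 1 line per converted library; the dotted line marks the 2 h of labelling, and genes with an NTR of 1 or 0 are not drawn. The TUC B and SLAM B lines lie to the left of the A lines, with medians of 1.46 and 1.52 h against 1.84 and 1.96 h.

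The shortest half-lives are poorly resolved. In 253 genes NTR was 1 in at least 1 library, which allows only an upper bound, and in 3 of them it was 1 in all 4: E2f8, a repressor of the cell cycle, Ctgf, a matricellular growth factor, and Spry4, an inhibitor of receptor tyrosine kinase signalling. The bounds from the 5% quantile of the deposited estimate were 0.339 to 0.404 h for E2f8, 0.203 to 0.245 h for Ctgf and 0.304 to 0.357 h for Spry4. Genes were called short-lived where they lay among the shortest 20% in all 4 libraries (1582 genes, 17.4% of those measured), and long-lived where they lay among the longest 20% in all 4 (1581 genes, 17.4%). The medians of these groups were 0.418 and 6.99 h. Long-lived genes had a median NTR of 0.156, 0.191, 0.166 and 0.202. In the unconverted 4sU libraries long-lived genes had a median NTR of 0.0117 and 0.0113, and short-lived genes 0.0282 and 0.0246, so the background itself moved with half-life. The part of this background in the results was tested only by subtracting it, which gave a median of 1.76 h.

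Lists of signalling and transcription regulators lay at the short end. Apart from the 253 genes with an NTR of 1 in some library, the 12 shortest half-lives lay between 0.243 and 0.263 h. They had no resolved order, since the ranges of their libraries all overlapped. The deposited posterior mean put each of these genes at an NTR of 1 in at least 1 library, above the 95% quantile of the same estimate. They belonged to Foxn2, Clcf1, Arrdc3, Crkl, Klf2, Zfand5, Mdm2, Fem1b, Lin9, Klhl42, Runx2 and Iffo2. Mdm2, the ubiquitin ligase that holds p53 in check, gave 0.246, 0.231, 0.241 and 0.306 h. Klf2, a zinc finger transcription factor, gave 0.151, 0.280, 0.285 and 0.445 h, and its libraries spread more widely. With the background of unconverted 4sU subtracted, Mdm2 came to 0.396 h and Klf2 to 0.526 h, a shift of over 1.5-fold. Subtraction lowers each NTR by the whole background, so no NTR can stay at 1 and the shortest half-lives lengthen by construction. Ctgf, at an NTR of 1 in all 4 libraries, came to 0.397 h in the same way.

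Inhibitors that shut off growth factor signalling were among the fastest to turn over. Of 15 measured MAPK and EGFR feedback inhibitors 14 were short-lived, and 9 had an NTR of 1 in some library. Dusp1 and Dusp6, phosphatases that inactivate MAP kinases, had NTRs of 1.00, 0.988, 0.998 and 0.983 for Dusp1 and 1.00, 0.985, 0.995 and 0.987 for Dusp6. Spred3, a Sprouty-related inhibitor, was the slowest of the group at 1.01 h. All 10 measured Kruppel-like factors were short-lived, with a list median of 0.329 h and Klf16 the longest at 0.389 h. Of 11 early response genes of TGF-beta and BMP signalling, 10 were short-lived. They included Skil, a repressor of SMAD signalling (0.228, 0.321, 0.286 and 0.320 h), and Id3, an inhibitor of basic helix-loop-helix factors (0.223, 0.413, 0.372 and 0.374 h). Among secreted cytokines and growth factors 15 of 19 were short-lived (median 0.376 h). Fgf7 had 0.304, 0.369, 0.338 and 0.355 h, whereas Hgf, the hepatocyte growth factor, had 3.21, 2.23, 2.98 and 2.14 h and did not overlap it.

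Immediate-early genes, which serum switches on without new protein synthesis, had a median of 0.393 h, and 14 of 20 were short-lived. Myc gave 0.335, 0.307, 0.346 and 0.405 h, and Jun gave 0.420, 0.515, 0.424 and 0.467 h. Within the AP-1 family Jund (1.22, 1.02, 1.16 and 1.09 h) lay above Jun in every library. Fos fell below the read minimum and has no estimate. Of the SOCS and C/EBP genes 9 of 10 were short-lived (median 0.464 h), and of the Zfp zinc finger genes 110 of 183 (median 0.488 h). For p53 targets the list split. Cdkn1a, the cell cycle inhibitor p21, gave 0.198, 0.306, 0.367 and 0.336 h, whereas the death effector Bax gave 3.36, 2.60, 3.40 and 2.78 h. The level of Cdkn1a was higher in the converted libraries than in untreated cells, so its steady state is in doubt. Of 22 targets 11 were short-lived and 1 long-lived. Clock genes had a median of 0.597 h, and 2 of 13 had an NTR of 1 in some library. Bhlhe40, a repressor of the clock, had 0.315 h and Tef, a PAR bZIP factor, the longest value of the list at 1.26 h.

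The median half-life of genes for RNA decay factors lay below that of all genes. Of 34 genes for AU-rich element binding proteins and decay enzymes 13 were short-lived and 1 was long-lived, with a median of 0.772 h. Zfp36l2 and Zfp36l1, which bind AU-rich elements and recruit deadenylases, had 0.264 and 0.314 h, whereas Xrn2, a nuclear 5′ to 3′ exonuclease, had 4.16 h and the deadenylase Parn 5.53 h. In the NF-kB list the inhibitor Nfkbia gave 0.213, 0.405, 0.358 and 0.398 h, below the subunit Nfkb2 (1.91, 1.36, 1.80 and 1.37 h) in every library. Another inhibitor, Nfkbib, was the longest of the list at 2.21, 1.58, 2.00 and 1.90 h and lay above Nfkb2 in every library. Chromatin regulators had a median of 0.669 h with 35 of 89 short-lived and 6 long-lived. In 3 of them NTR was 1 in some library. Tet3, a dioxygenase of methylated cytosine, had 0.275 h and the remodeller Chd3, the longest of the list, 9.65 h.

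**Figure D2:**
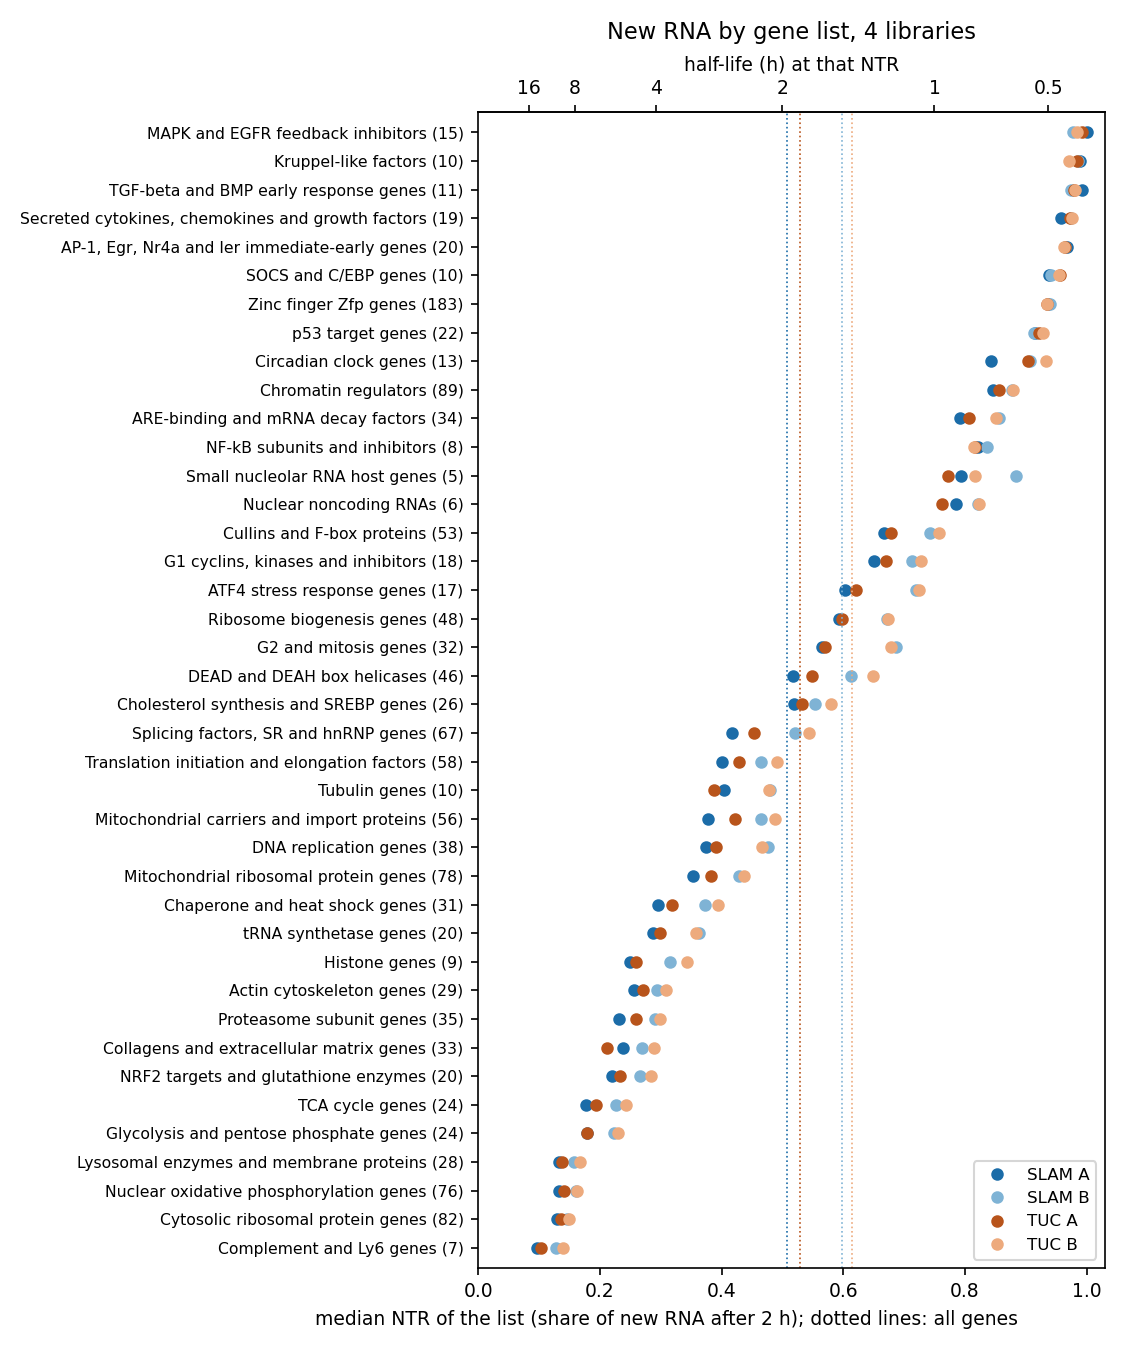
Median NTR (share of new RNA after 2 h, linear axis from 0 to 1, with the matching half-life in h on the upper axis) of 40 gene lists, each with its number of measured genes in brackets; points are the 4 converted libraries and dotted lines the median of all genes in each. The 8 lists from MAPK and EGFR feedback inhibitors down to p53 targets lie to the right of 0.9 in all 4 libraries, and ribosomal protein, oxidative phosphorylation and lysosomal lists to the left of 0.2.

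Ribosomal protein, respiratory chain and lysosomal lists lay at the long end. Cytosolic ribosomal protein genes had a median of 9.15 h, and 79 of 82 were long-lived. Rpl39 gave 15.7, 15.1, 14.1 and 14.3 h, and Rplp1 gave 14.5, 13.5, 13.5 and 12.4 h. The shortest was Rpl7l1, a Rpl7-like protein linked to ribosome assembly, at 0.875 h. Reads of these genes can be shared with processed pseudogenes, so their single values are less certain. Nuclear genes for oxidative phosphorylation had a median of 8.72 h with 72 of 76 long-lived, among them the complex I subunits Ndufa1 (16.7 h) and Ndufa13 (15.4 h). Mitochondrial ribosomal protein genes, which serve the same organelle, had a median of 2.73 h with 16 of 78 long-lived. Lysosomal genes had a median of 8.44 h with 25 of 28 long-lived. Asah1, acid ceramidase, gave 18.1, 14.3, 16.7 and 12.01 h, while the sialidase Neu1 was at 1.26 h.

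Genes of energy metabolism followed. The TCA cycle list had a median of 5.84 h with 16 of 24 long-lived, including the isocitrate dehydrogenase Idh2 at 14.2 h, and glycolysis and the pentose phosphate pathway 6.15 h with 16 of 24. Gapdh gave 10.2, 7.65, 9.96 and 7.34 h. Proteasome subunit genes lay from 1.10 to 6.97 h with a median of 4.53 h and 17 of 35 long-lived. Genes for tRNA synthetases had a median of 3.50 h (4 of 20 long-lived), and translation factors 2.33 h (16 of 58). Eef1a1, which delivers aminoacyl-tRNA to the ribosome, had 10.5, 10.2, 10.1 and 9.59 h. Chaperones had 3.27 h with 7 of 31 long-lived, where the endoplasmic reticulum isomerases Pdia3 (7.60 h) and Pdia6 (7.84 h) were the longest and the heat-inducible co-chaperones Dnajb4 (0.406 h) and Dnajb1 (0.474 h) the shortest.

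The longest half-lives included those of secreted complement proteases and glutathione transferases. C1s1 and C1ra, proteases of the first complement component, gave 38.5, 37.0, 45.5 and 30.7 h for C1s1 and 28.8, 41.8, 34.3 and 33.9 h for C1ra. Ly6a, a GPI-anchored surface protein, gave 34.8, 41.8, 37.8 and 34.7 h. C1rb, Pltp, Gchfr, Cpq, Gstm1, Gstm2, Naalad2, Fah and Fggy completed the 12 longest, from 26.6 to 37.2 h. The libraries of many of these genes overlapped, but Naalad2 (26.9 to 29.1 h) lay below C1s1, Ly6a, Pltp and C1rb in all 4 libraries. Subtracting the background lengthened Gchfr, a regulator of GTP cyclohydrolase, from 33.4 to 66.1 h and Pltp, a phospholipid transfer protein, from 35.8 to 57.6 h, and C1s1 to 44.6 h. For Gchfr the NTR was 0.0400 in SLAM B and 0.0350 in TUC B, below its 0.047 in the unconverted 4sU library B. Its hours are therefore not resolved from background in the B libraries. In uridine libraries A and B, Pltp had an NTR of 0.0123 and 0.0339, the latter above its 0.0336 in SLAM A. Fggy had 0.0308 and 0.0137 there, the former above its 0.0212 in SLAM B. These library values are not resolved from the uridine background either, and Fggy ran from 20.9 to 64.7 h. Of 7 measured complement and Ly6 genes 6 were long-lived, with Cd55, a complement inhibitor, the shortest at 3.67 h. C1rb may share reads with C1ra. The hours of the 12 longest rest on the steady-state assumption, and most of these genes got no half-life without it. Over the whole range 4559 genes (50.2%) were under 2 h and 430 (4.74%) over 8 h in all 4 libraries.

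Several lists held genes with very different half-lives, and the genes compared in the next paragraphs were picked for this after their values were seen. One case was the pair of genes for histone H3.3, the variant deposited outside S phase, which encode the same protein. H3f3b gave 1.53, 1.38, 1.36 and 1.19 h and H3f3a gave 14.4, 11.98, 10.7 and 9.74 h. The ratio was 8.45 (7.86 to 9.43 over the libraries). H3f3b was at 241, 210, 282 and 262 reads per kb of gene length, scaled to a library of 1e6 reads (RPKM) and H3f3a at 80.0, 75.9, 83.0 and 82.9. H3f3b had 17.4 times the new reads per kb of H3f3a, while H3f3a reached 0.323 of its level. Pseudogenes of both could take or lend reads. The other histone variants measured ran from H1f0 at 1.21 h to H2afv at 14.4 h, and 9 of the 76 histone genes in the table passed the read minimum.

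The cholesterol list held short-lived and long-lived genes. Hmgcs1, the synthase at the entry of the pathway, gave 0.387, 0.366, 0.362 and 0.362 h. Insig1, the sterol sensor's partner, had 0.491 h. The late sterol isomerase Ebp gave 8.50, 8.30, 8.26 and 7.35 h and the reductase Tm7sf2 14.7, 11.9, 14.2 and 10.4 h. Tm7sf2 outlived Hmgcs1 by 34.0-fold (28.7 to 39.1 over the libraries), while Hmgcs1 had 24.4 times its new reads per kb. The list as a whole had a median of 1.78 h, on neither side of all genes in the 4 libraries, with 4 of 26 short-lived and 2 long-lived.

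The promoter windows of these pairs lie where their synthesis starts and are given because their new reads per kb differed, by 17.4 and 24.4 times. Sequences are the 120 bases before the start site listed by RefSeq (build GRCm38.p6), 5′ to 3′ on the gene's strand. Capitals mark CCAAT and GGGCGG on either strand (ATTGG and CCGCCC on the other) and TATAAA on the gene's strand.
H3f3b, chr11:116024505-116024624 (- strand): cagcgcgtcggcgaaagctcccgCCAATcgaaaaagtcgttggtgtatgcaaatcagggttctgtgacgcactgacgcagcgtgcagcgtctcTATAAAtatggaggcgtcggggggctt
H3f3a, chr1:180813606-180813725 (- strand): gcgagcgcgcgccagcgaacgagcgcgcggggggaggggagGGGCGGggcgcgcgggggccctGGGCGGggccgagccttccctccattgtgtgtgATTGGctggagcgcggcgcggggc
Hmgcs1, chr13:119690231-119690350 (+ strand): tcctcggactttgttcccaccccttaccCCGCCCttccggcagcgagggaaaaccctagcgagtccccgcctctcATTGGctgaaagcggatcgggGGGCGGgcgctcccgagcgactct
Tm7sf2, chr19:6067851-6067970 (- strand): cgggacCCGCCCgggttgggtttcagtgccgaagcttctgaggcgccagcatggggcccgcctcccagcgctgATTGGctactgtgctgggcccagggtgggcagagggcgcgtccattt
Windows ran from 250 bases before to 50 after a listed start, and those of a single chromosome were left out. GGGCGG was found in 66.6% of the 9267 windows of the measured genes and in 35.7% of the 32851 windows of all genes. CCAAT was found in 38.02 and 37.4%. TATAAA was sought from 45 to 19 bases before the start and found in 0.906% of the windows of measured genes and 2.08% of all. Among short-lived genes 68.4% of windows held GGGCGG and 1.28% TATAAA, and among long-lived genes 63.1 and 1.48%, so the motifs differed little between the ends of the half-life range. A match is a run of letters, not a shown binding site.

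In the glycolysis and pentose phosphate list 2 of 24 genes were short-lived. Hk2, the inducible hexokinase, gave 0.305, 0.296, 0.333 and 0.349 h and Eno2, the enolase first known from neurons, 0.600, 0.534, 0.597 and 0.567 h. Ldhb, a lactate dehydrogenase subunit, gave 18.2, 20.8, 21.4 and 17.8 h and Taldo1, transaldolase, 10.1, 9.08, 10.4 and 9.71 h. Ldhb outlived Hk2 by 60.8-fold (51.0 to 70.3 over the libraries). Eno1, the main enolase here, gave 6.31 h and outlived Eno2 by 11.0-fold. Among NRF2 targets, Nfe2l2 itself (0.337, 0.300, 0.402 and 0.400 h) and Hmox1, heme oxygenase (0.296, 0.376, 0.334 and 0.443 h), stood against Gpx4, which reduces lipid peroxides (19.4, 16.2, 17.6 and 16.5 h), and Gstm1, a glutathione transferase (23.7, 34.5, 27.1 and 41.1 h). In that list 3 of 20 genes were short-lived and 11 long-lived.

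Structural genes also differed widely. Actb gave 2.53, 2.20, 2.12 and 1.90 h and the smooth muscle actin Acta2 23.4, 17.2, 22.9 and 16.9 h, a ratio of 9.08. The focal adhesion protein Zyx had 1.01 h and the light chain Myl6 11.0 h, and 13 of 29 actin cytoskeleton genes were long-lived. Actin genes are alike in sequence, and their reads may be split between them. Of 33 matrix genes 16 were long-lived and 1, Thbs1, was short-lived. Thbs1, an adhesive glycoprotein, gave 0.458, 0.356, 0.454 and 0.390 h and Postn, periostin, 24.9, 12.9, 22.3 and 13.3 h, where both A libraries lay above both B libraries. Col1a1, Col1a2 and Fn1, the main fibrillar collagen chains and fibronectin, had 7.65, 10.7 and 9.09 h. In the G2 and mitosis list no gene was short-lived by the 20% rule and 3 of 32 were long-lived, and its range ran from the kinase Aurka (0.608 h) and Cks2 (0.611 h) to Bub1 (5.68 h) and the cyclin Ccnb2 (7.36 h). For the ATF4 response the regulators Sesn2 and Ppp1r15a had 0.324 and 0.431 h, while the serine synthesis enzymes Psat1 and Phgdh had 5.11 and 6.04 h.

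Lists between these ends lay closer to the median of all genes. Cullins and F-box proteins, parts of ubiquitin ligases, had a median of 1.09 h, G1 cyclins, kinases and inhibitors 1.18 h, the ATF4 list 1.25 h, ribosome biogenesis genes 1.36 h, G2 and mitosis genes 1.40 h and DEAD and DEAH box helicases 1.56 h. Splicing factors had 2.18 h, tubulins 2.33 h, mitochondrial carriers and import proteins 2.37 h and DNA replication genes 2.54 h. Within the G1 list E2f3, an activator of S phase genes, had 0.328 h and Cdk4, the partner of the D cyclins, 5.13 h. The 5 small nucleolar RNA host genes had a median of 0.802 h and the 6 nuclear noncoding RNAs 0.886 h. Of the 40 lists, 20 lay below the median of all genes in each of the 4 libraries, 19 lay above it in each, and the cholesterol list changed sides.

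**Figure D3:**
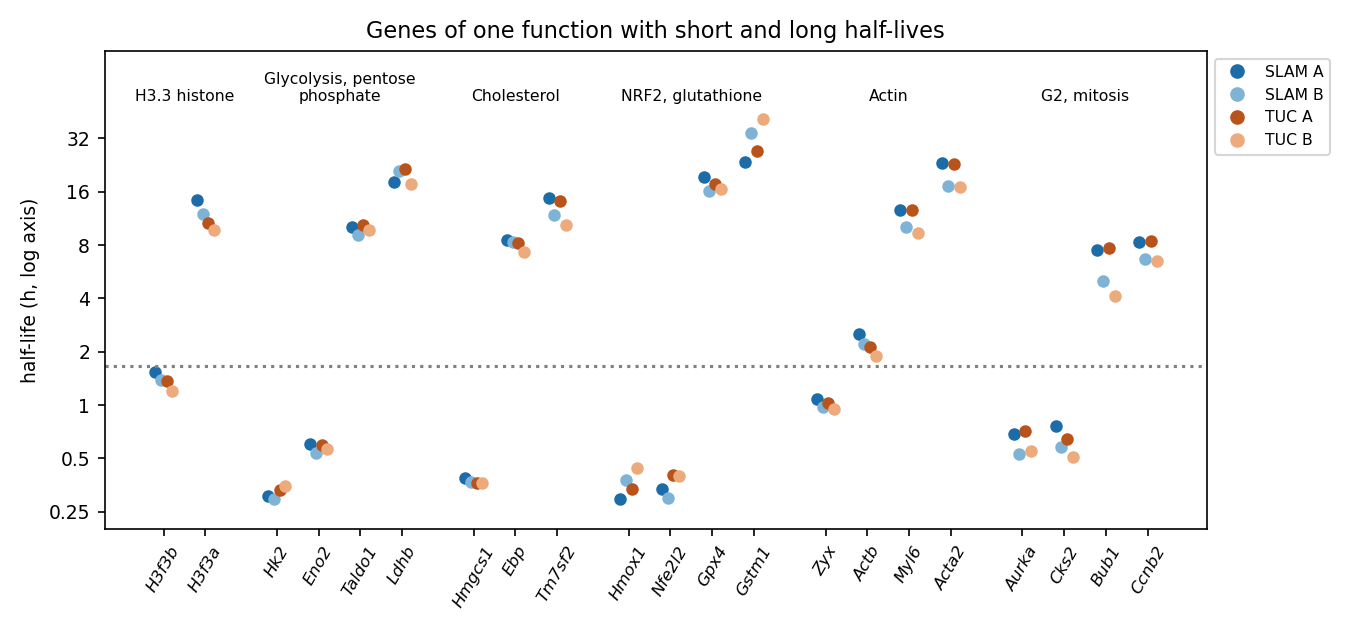
Half-life (h, log axis) of 21 genes in 6 functions; each gene has 4 points, the converted libraries, and the dotted line is the median of all genes (1.66 h). Within each function the shorter and the longer genes do not overlap, for example H3f3b at 1.19 to 1.53 h against H3f3a at 9.74 to 14.4 h.

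Noncoding RNAs of the nucleus differed as well. Neat1, which builds paraspeckles, gave 0.553, 0.508, 0.580 and 0.513 h and Malat1, a speckle RNA, 2.86, 3.16, 3.07 and 3.01 h, a ratio of 5.63. The 32 genes that RefSeq classes as lncRNA had a median of 1.06 h, with 6 short-lived and 1 long-lived. The long-lived gene was Gm26619, whose NTR lay within its background, and the next longest, Snhg18, had 4.53 h.

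Levels were set apart mostly by synthesis. New reads (reads times NTR) were used as the synthesis of a gene and reads over new reads as its stability, so that on a log2 scale level is the sum of both. Over the 9079 genes, 78.7% of the variance of log2 level went with synthesis and 21.3% with stability, and the share of stability was 22.5, 20.3, 21.8 and 19.9% in the 4 libraries. Since new RNA that decays within 2 h is not seen, this form understates the synthesis of short-lived genes. With decay rate times level as synthesis the share of stability was 32.3% over 8826 genes, and with 1000 reads or more it was 28.3%. Across genes the Spearman correlation of level was 0.860 with synthesis and 0.407 with stability, and that of synthesis with stability was -0.059. Reads enter level and synthesis alike, so part of the first is built in. NTR enters synthesis and stability with opposite signs, which pulls their correlation down by construction, so it does not show that they are unrelated.

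Abundant RNAs were longer-lived. In the lowest 20% of genes by level the median half-life was 0.913 h and 28.6% were short-lived, and in the highest 20% it was 3.74 h, with 6.002% short-lived and 40.5% long-lived. Sorting by the level in untreated cells, which shares no reads with NTR, gave 1.01 and 3.53 h. By synthesis there was no such run. The median was 2.54 h in the lowest 20%, 1.37 to 1.40 h in the groups between and 1.95 h in the highest. Synthesis and half-life both come from NTR, and a low NTR lowers synthesis, so part of this pattern is built in. Long-lived genes were also shorter in sequence, with a median deposited length of 2249 bases against 4219 for short-lived ones, and length and half-life correlated at -0.35 across genes (Spearman).

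**Figure D4:**
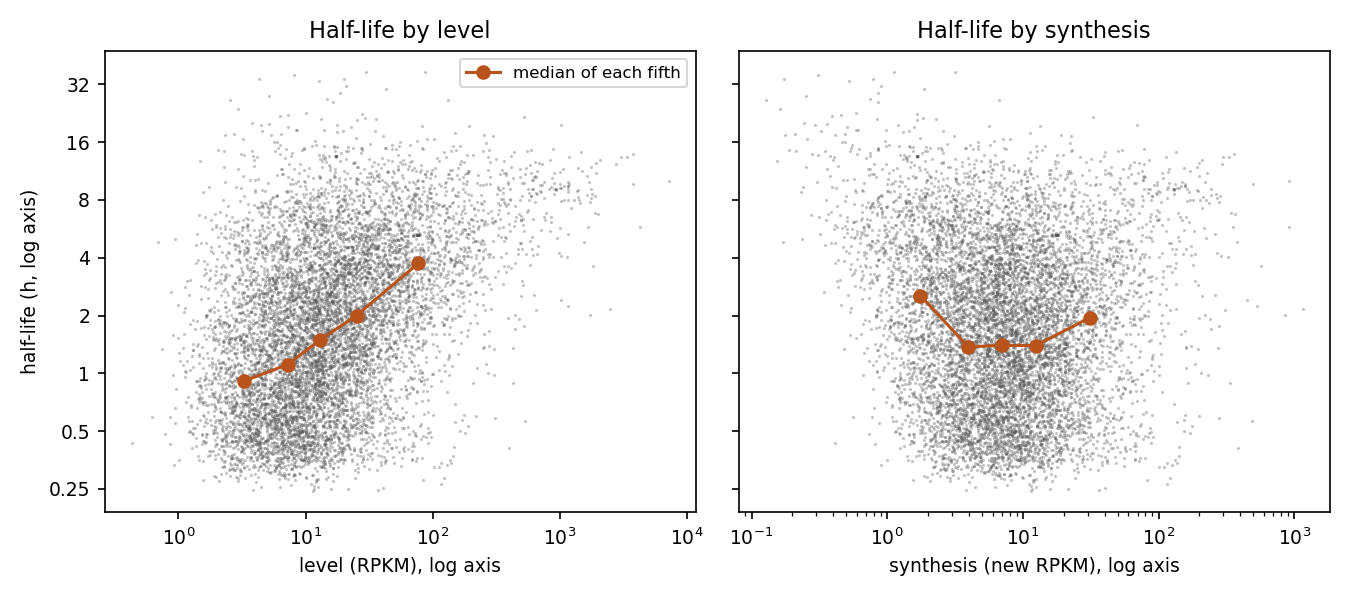
Half-life (h, log axis) against level (RPKM, log axis, left) and against synthesis (new RPKM, log axis, right); each grey point is a gene and orange points are medians of 20% groups. Genes without a finite half-life in the drawn range are left out, and the medians rise from 0.913 to 3.74 h with level but not steadily with synthesis.

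Gene groups reached their levels by different routes. Ribosomal protein genes were above the mean of all genes by 5.58 in log2 level, of which 3.82 was synthesis and 1.75 stability. Oxidative phosphorylation genes were above by 2.42, with 0.73 from synthesis and 1.69 from stability, and lysosomal genes by 2.06, with 0.45 and 1.61. The complement and Ly6 genes were above by 0.89 although their synthesis was -1.54 from the mean, since stability added 2.43. Immediate-early genes lay 0.86 above, with 1.82 from synthesis and -0.95 from stability. Cholesterol genes, at 2.27 above, had 2.3 from synthesis and -0.03 from stability. Zfp zinc finger genes were low on both, at -0.66 in synthesis and -0.84 in stability. The stability offsets of the fastest lists have a floor, since NTR cannot exceed 1.

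**Figure D5:**
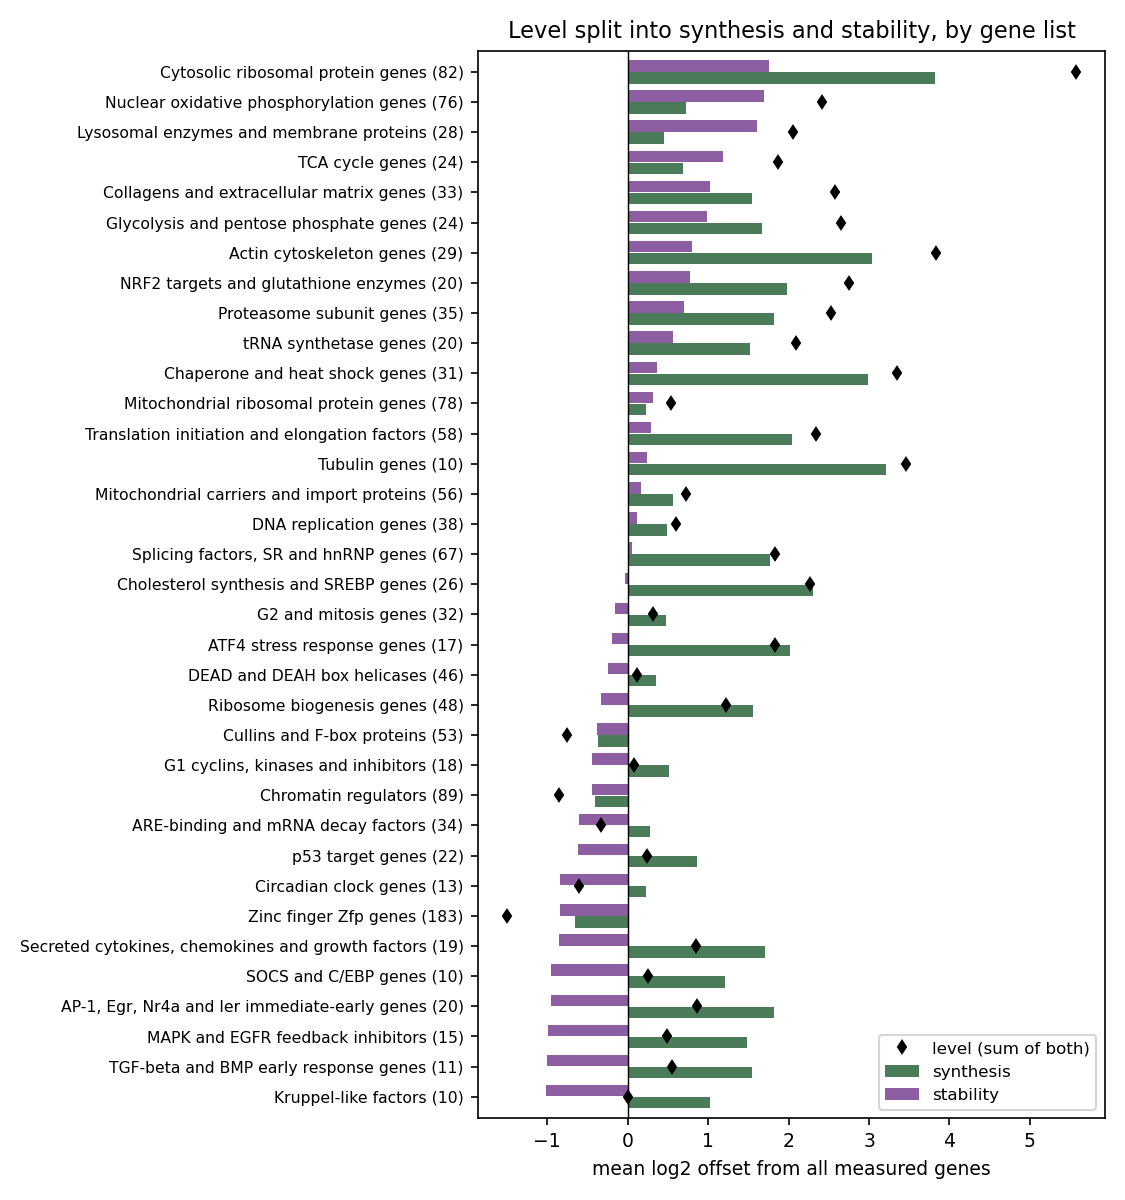
Mean log2 offset of each gene list from all measured genes (horizontal axis) in synthesis (green bars), stability (purple bars) and level (black diamonds, the sum of both), for lists with 10 measured genes or more, sorted by stability. Ribosomal protein genes are highest in level (5.58), and oxidative phosphorylation and lysosomal genes have longer stability than synthesis bars.

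Single genes showed both extremes. Actb, Eef1a1 and Ftl1, a ferritin chain, had the most new RNA, with 1159, 921 and 911 new RPKM. Eef1a1 and Ftl1 had half-lives of 10.1 and 5.78 h, Actb only 2.16 h, and their levels were 7166, 4274 and 2468 in the order Eef1a1, Ftl1 and Actb. The most abundant short-lived genes were Tnfrsf12a (530 RPKM, 0.564 h), Thbs1 (398), Atf4 (310, 0.587 h), Nr4a1 (255), Sdc4 (220, 0.599 h) and Ctgf (200.3). Nr4a1, an orphan nuclear receptor, had an NTR of 1.00, 1.00, 1.00 and 0.990. Conversely, C1s1, Gstm1, Ptgr1, Gstm5, Tapbp and Copz2 were the most abundant of the 20% of genes with the lowest synthesis. Gstm1 stood at 42.6 RPKM on 1.88 new ones, and C1s1 at 29.7 on 1.11.

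The dependence of these half-lives on a steady state was examined by comparing old RNA with the level in untreated cells. The median half-life was then 1.48 h with TMM scaling, and the order of genes stayed close (Spearman 0.972 across genes). However, 849 genes held at least as much old RNA as untreated cells held in all and got no half-life, among them H3f3a, Tm7sf2, Ldhb, Acta2 and Gapdh, and the ribosomal protein, oxidative phosphorylation, lysosomal and NRF2 lists had no defined median. Of the 12 genes with the longest half-lives, C1s1 came to 764 h, Naalad2 came to 122 h and the rest got none. Scaled by library totals instead, C1s1 came to 35.8 h, Naalad2 to 29.6 h and Ly6a to 85.8 h, and the rest got none. The lysosomal and NRF2 lists then had medians of 54.4 and 72.4 h, so these long values depend strongly on the scaling. The values that follow are with TMM. Actb came to 4.50 h instead of 2.16 h. Other genes shortened by over 1.5-fold, to 1.91 h for Xrn2, 1.46 h for Malat1, 1.36 h for Hgf and 3.09 h for Bub1. H3f3b (1.38 h), Hmgcs1 (0.349 h) and Myc (0.348 h) moved little. Levels of some p53 targets differed from those in untreated cells. Cdkn1a, at 122 RPKM in converted libraries against 46.6 in untreated cells, came to 0.358 h instead of 0.285 h. Mdm2, at 40.3 against 20.6 RPKM, came to 0.290 h instead of 0.253 h, and Bax came to 8.18 h instead of 2.99 h. The comparison mixes a change in level with differences in read recovery and scaling between converted and untreated libraries, which were not tested apart. It therefore cannot test the steady state by itself, and the hours of the genes that moved rest on that assumption. Fibroblast genes were well covered, with 11 of 12 markers measured, and summed markers of endothelial and epithelial cells were at or under 1.07 counts per 1e6 reads in each library and those of macrophages at or under 15.6.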

How the data were processed

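RNA-seq libraries of NIH-3T3 cells were used as 1 table of 17053 genes and 10 libraries. Expected counts of reads per gene were deposited without scaling, per the file headers and values. A fraction from 0 to 1 per gene was deposited as posterior mode, mean and quantiles, per the file headers; the headers give it no name, and it was read as NTR because it is near 0 without conversion. Cutadapt, Bowtie2 2.3.0 and STAR 2.7.10b were used, per the submitters' processing notes. Which genome build, annotation, counter and NTR tool were used, and what the deposited gene length means, is not given in the sources used here. Of the values per library, 16 columns were not used.

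The posterior mode was used as NTR. Decay rate was -ln(1 - NTR) over 2 h, half-life ln 2 over the rate, and the rates of 4 libraries were averaged. Levels were expected counts per kb of deposited length per 1e6 reads of the library (RPKM). SLAM and TUC libraries with the letters A and B were treated as 4 measurements of one state, and no groups were compared and no test was made. Alternatives were the posterior mean, read minimums of 100 and 1000, subtraction of the NTR of the unconverted 4sU library of the same letter, no steady state (scaled by library totals or by TMM from edgeR 4.0.16 on counts rounded to whole numbers), each chemistry alone, each library left out, 10% in place of 20% groups, and 3 other forms of the variance split. Scripts ran in Python 3.11.15 with pandas 2.3.3 and R 4.3.3, and the calculation was tested on simulated data.

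The genes, the 40 lists and the settings were chosen with earlier results of these data known. Genes were named by a rule that took symbols that are no predicted, clone, pseudogene or antisense name. From genes with no NTR of 1 or 0 in any library, it took the 12 shortest and 12 longest half-lives. From the same genes it took the 2 shortest and 2 longest of each list. It also took the 6 most abundant short-lived genes, the 6 of highest synthesis and the 6 most abundant of the 20% lowest in synthesis. Actb, Gapdh, Myc, Fos, Jun, Cdkn1a and Mdm2 were added. Dusp1, Dusp6, Insig1, Eno1, Col1a1, Col1a2, Fn1, E2f8 and Spry4 were named after their values were seen. RefSeq names matched 8971 of the 9079 genes (98.8%). Promoter windows of a single chromosome were left out of all window counts, and 7260 genes had a window among the rest. The 50 genes just inside the read minimum (200 to 206 reads) had a median of 1.10 h and the 50 just outside it (192 to 199.5) 1.62 h. A few genes that this rule takes are not reported here.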

Additional observations from a re-analysis of the deposited data

How the results depend on the processing

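No paired analysis was possible because no groups were compared and no result comes from a test. With 1000 reads or more in place of 200 the median half-life was 2.12 h, 919 genes were short-lived and 867 long-lived, and the ATF4 list (3.02 h) and the nuclear noncoding RNA list (3.02 h) moved from below to above the median of all genes. With 10% in place of 20% groups 619 and 736 genes were called. The share of variance that went with stability was 18.8% with 100 reads, 28.3% with 1000 reads, 32.3% with the rate form of synthesis, 19.6% with levels from untreated cells and 16.03% without division by length. Leaving out each library in turn gave medians of 1.59 to 1.75 h, 1617 to 1636 short-lived and 1615 to 1628 long-lived genes, a stability share of 20.8 to 21.7%, and 20 lists below the median each time. Of the 196 named genes, 28 moved over 1.5-fold with the posterior mean and 23 with background subtraction. Subtraction lengthens the shortest half-lives by construction, since it keeps every NTR with a background below 1. Each of the 28 had a posterior mean NTR of 1 in some library, which sets its half-life to 0. Without steady state, 75 and 77 named genes moved over 1.5-fold by library totals and TMM. There 688 and 849 genes had no decay, and 40 and 45 named genes and 2 and 4 lists gave no value. The cause was not tested. Depth limits the genes with few reads, whose libraries differed by a median of 1.42-fold at 200 to 500 reads against 1.31-fold above 5000, and intervals of the deposited estimate cover counting error only.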

Other observations

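Genes with almost no new RNA were also present. Gm26825 had an NTR of 0.0001, 0, 0.0011 and 0.0025 and Gm26619 of 0.0012, 0, 0.001 and 0.0033 in SLAM A, SLAM B, TUC A and TUC B, at 23.6 and 55.1 RPKM. Gm20721 had 0.0019, 0.0042, 0.0054 and 0.0048. These values lay at or below the NTR of the same genes in the unconverted 4sU libraries, which was 0.0032 and 0.0049 for Gm26825, 0.0099 and 0.0048 for Gm26619 and 0.0166 and 0.0055 for Gm20721. All 3 are counted among the long-lived genes, and their nominal half-lives are not given as hours because the NTR is within its background.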
